A study of Mus musculus with 4 samples.

Results

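The 45 genes described here encode 22 matrix metalloproteinases (MMPs), 19 ADAMTS proteases and 4 tissue inhibitors of metalloproteinases (TIMPs). They are all genes of the deposited table of 32285 genes whose symbol is Mmp, Adamts or Timp followed by digits and at most 1 letter, so the ADAMTS-like genes without a protease domain were left out. RNA was counted in single cells of the femur and tibia of 1 young (6-month-old) and 1 old (24-month-old) mouse. Both mice carried the INK-ATTAC transgene, in which a p16Ink4a promoter drives an inducible caspase 8, and neither mouse was treated. Marrow was digested with Liberase and bone with collagenase, cells bearing blood lineage markers were depleted on magnetic beads, and live CD45- cells were sorted, stained with an oligonucleotide-tagged CD24 antibody, and sequenced with 10x Genomics 3′ chemistry. With 1 mouse per age, a difference between the libraries is one between 2 animals, and age, animal and library cannot be told apart.

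MMPs are zinc proteases that cut collagens, gelatin, proteoglycans and other matrix proteins, and most are secreted as inactive zymogens whose prodomain must be removed. ADAMTS proteases are secreted relatives with thrombospondin repeats, several of which cut aggrecan and versican while others trim procollagens. TIMPs bind the active site of these proteases and block it. In bone, matrix proteases take part in growth plate turnover, in the remodelling around osteocytes and in the entry of vessels, and neutrophils store some MMPs in their granules.

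Barcodes with at least 200 genes and at most 20% mitochondrial UMIs were kept, 10063 of 11371 in the young library and 5607 of 6729 in the old, with 81076421 and 66702846 RNA UMIs (unique molecular identifiers, each standing for 1 captured molecule). Median depth per cell was 6385 UMIs (young) and 9711 UMIs (old), and 19 barcodes occurred in both. Cells were placed in groups by a score over marker lists that hold none of the 45 genes, and 11475 of 15670 cells (73.2%) were given a group. The 11 groups with at least 50 cells per library were used, and small groups such as macrophage-like cells were left out. Close to the limit of assignment, on either side of it, lay 1321 cells. Cell numbers, young then old, were 2479 and 1508 for marrow stroma, 725 and 418 for osteoblasts, 259 and 92 for chondrocytes, 2047 and 807 for fibroblasts, 580 and 245 for tendon cells and 84 and 91 for mural cells (pericytes and vascular smooth muscle). Blood cells remained despite the depletion and the sort, with 166 and 354 granulocytes among them. Levels are CPM, the UMIs of a gene per 1000000 RNA UMIs of that group in that library. A 3′ library counts molecules whatever their length, and levels of different genes were set side by side on that ground. Differences between genes in how well their molecules are captured were not assessed. Intervals are exact 95% intervals and cover counting error only, and fewer cells holding a transcript cannot be told from fewer transcripts per cell by a summed level alone.

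Together the 45 genes gave 288799 young and 241709 old UMIs, 0.356% and 0.362% of all RNA. Of the 45, 34 had at least 100 UMIs over both libraries, 7 had between 1 and 99, and 4 (Mmp1b, Mmp7, Mmp20 and Mmp21) had none. The 8 most abundant genes, Timp2, Mmp13, Mmp2, Timp3, Adamts5, Mmp14, Adamts2 and Timp1, held 83.4% of these UMIs in the young library, and the 8 most abundant in the old held 81.3%. For 24 of the 34 genes the same group of the 11 stood highest in both mice. That group was mural cells for 5 genes, fibroblasts for 5, osteoblasts for 4, marrow stroma for 3, granulocytes for 3, tendon cells for 2 and blood progenitors and B-lineage cells for 1 each. In 13 of the 24 the highest group was at least 2-fold above the next in both mice. Some of these places rest on few UMIs, as for Adamts7, Mmp17 and Adamts8.

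**Figure D1:**
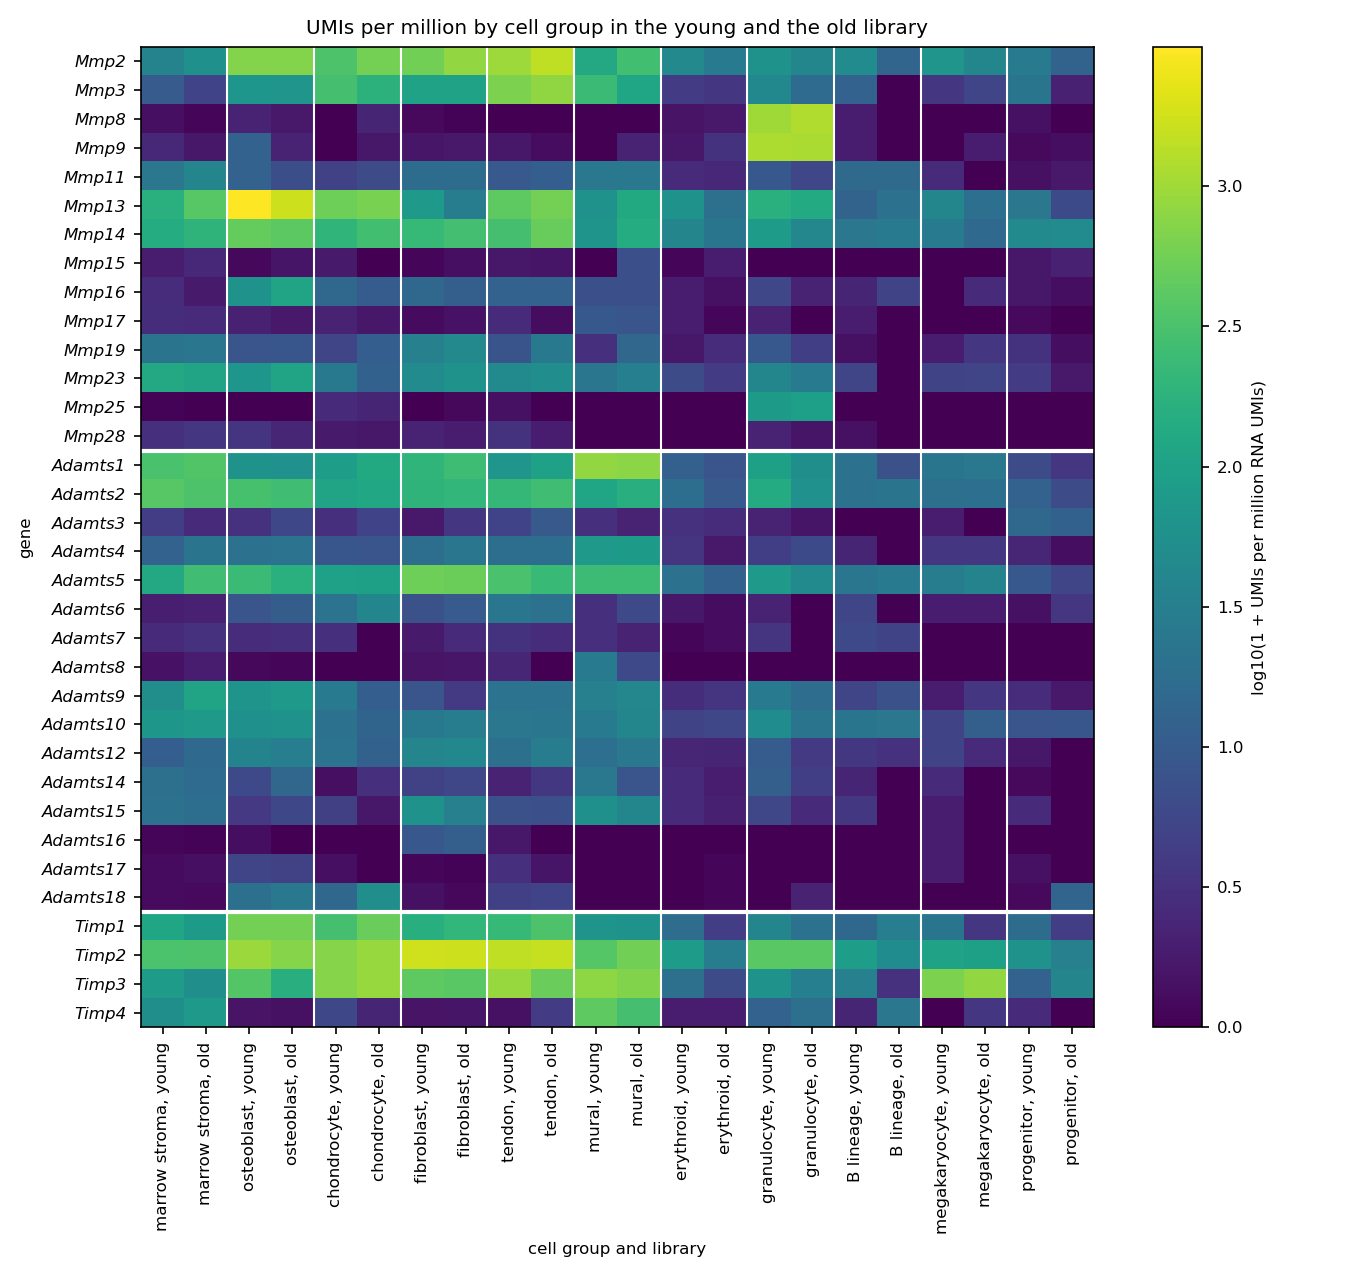
Levels of the 34 genes with at least 100 UMIs (rows) in 11 cell groups of the young and the old library (columns), as log10(1 + CPM). The young and old columns of a group look alike, with Mmp8, Mmp9 and Mmp25 bright in granulocytes, Mmp13 in osteoblasts and Timp4 in mural cells.

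Of the collagenases, which can cut the triple helix of fibrillar collagen, Mmp13 (ENSMUSG00000050578) was the abundant one in mesenchymal cells. Its level in osteoblasts was 3141 CPM in the young and 1696 CPM in the old mouse. Chondrocytes followed with 529.5 and 630.0 CPM and tendon cells with 429.6 and 580.5 CPM. Osteoblasts stood above every other group in both mice, by 5.93-fold over the next group in the young and 2.69-fold in the old, while chondrocytes, tendon cells and, in the old mouse, marrow stroma lay within a narrow range. In edgeR's quasi-likelihood test of osteoblasts against the mean of the other 5 mesenchymal groups, with the mouse as a covariate, Mmp13 was higher by 3.60 ± 0.33 (log2, SE; n = 2 mice; adjusted p = 2.2e-05), and the difference was 4.15 in the young mouse alone and 3.10 in the old.

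Mmp13 RNA was unevenly spread. An Mmp13 UMI was found in 56.3% of young and 59.3% of old osteoblasts, against 13.0% and 10.6% of erythroid cells, which should lack the gene and whose cells were deeper than osteoblasts in the median (11358 against 6137 UMIs in the young, 13579 against 12109 in the old). The richest 1% of kept cells held 46.9% of the Mmp13 UMIs of the young library and 38.6% of those of the old. The richest single cells, both osteoblasts, held 1251 (young) and 803 UMIs (old). Osteoblasts held 42.7% and 35.9% of all Mmp13 UMIs, and cells that were placed in no group held 38.7% and 36.1%.

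The other collagenase found, Mmp8 (neutrophil collagenase, ENSMUSG00000005800), was a granulocyte gene here. Granulocytes held 853 of 911 Mmp8 UMIs in the young library and 2057 of 2131 in the old, at 987 and 1188 CPM. The remaining blood groups together had 7 and 5 UMIs. Mmp8 lies with Mmp13 and 7 more of the 45 genes in a run of 10 protein-coding genes on chromosome 9 (chr9:7272514-7699585 in GRCm38.p6, 427.1 kb). The other members of the run are Mmp12, Mmp1b, Mmp3, Mmp10, Mmp27, Mmp20 and Mmp7, and Mmp1a was not analysed here. The 3 abundant genes of this run were highest in 3 different groups, Mmp13 in osteoblasts, Mmp3 in tendon cells and Mmp8 in granulocytes, which is why the 250 bases before their annotated start sites are printed here, with Timp1 from outside the run for comparison. They come from RefSeq (GRCm38.p6, plus strand of the chromosome, 5′ to 3′) and lie at chr9:7272264-7272513 for Mmp13, chr9:7445572-7445821 for Mmp3, chr9:7558179-7558428 for Mmp8 and chrX:20869916-20870165 for Timp1. Capitals mark the motifs that a search of both strands found.
Mmp13: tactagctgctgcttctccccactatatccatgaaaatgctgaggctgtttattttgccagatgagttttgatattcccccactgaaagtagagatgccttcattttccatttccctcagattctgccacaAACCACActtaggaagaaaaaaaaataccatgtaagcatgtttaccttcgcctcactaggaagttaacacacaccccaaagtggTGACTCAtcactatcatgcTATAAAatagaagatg
Mmp3: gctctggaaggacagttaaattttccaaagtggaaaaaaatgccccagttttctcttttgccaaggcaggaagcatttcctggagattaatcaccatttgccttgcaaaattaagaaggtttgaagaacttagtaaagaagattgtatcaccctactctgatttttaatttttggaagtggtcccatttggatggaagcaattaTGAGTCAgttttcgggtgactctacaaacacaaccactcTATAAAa
Mmp8: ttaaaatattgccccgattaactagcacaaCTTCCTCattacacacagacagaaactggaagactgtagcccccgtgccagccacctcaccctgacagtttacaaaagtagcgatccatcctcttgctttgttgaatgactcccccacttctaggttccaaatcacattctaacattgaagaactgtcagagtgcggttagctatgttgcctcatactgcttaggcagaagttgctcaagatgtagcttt
Timp1: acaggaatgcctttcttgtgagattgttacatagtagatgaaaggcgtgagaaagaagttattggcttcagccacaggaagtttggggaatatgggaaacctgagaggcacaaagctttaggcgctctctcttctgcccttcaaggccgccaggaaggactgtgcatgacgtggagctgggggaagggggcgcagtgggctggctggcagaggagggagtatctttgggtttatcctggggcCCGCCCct
The letters searched were TGANTCA (AP-1, the Fos and Jun dimer), AACCACA (RUNX, the family of the osteoblast factor Runx2), TATAAA (a core promoter box), GGGCGG (GC box) and GAGGAAG (PU.1, a myeloid factor), and no match overlapped another in these 4 stretches. They occurred in 6.87%, 4.46%, 13%, 32.9% and 10.4% of 27025 mouse promoters of this length, in that order. The Mmp13 stretch held an AP-1 match 35 to 29 bases before the start, a RUNX match 119 to 113 bases before it and the core box 16 to 11 bases before it. The Mmp3 stretch held an AP-1 match 46 to 40 bases before its start and the core box at 7 to 2, the Mmp8 stretch a PU.1 match at 220 to 214 on the minus strand, and the Timp1 stretch a GC box at 8 to 3 on the minus strand. A promoter was found in RefSeq for 31 of the 45 genes. Of the 9 in the chromosome 9 run, 6 held the AP-1 letters, 6 the core box and 0 a GC box, while of the other 22, 0 held the AP-1 letters, 2 the core box and 16 a GC box. These matches describe letters in a window and were tied to no binding here.

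**Figure D2:**
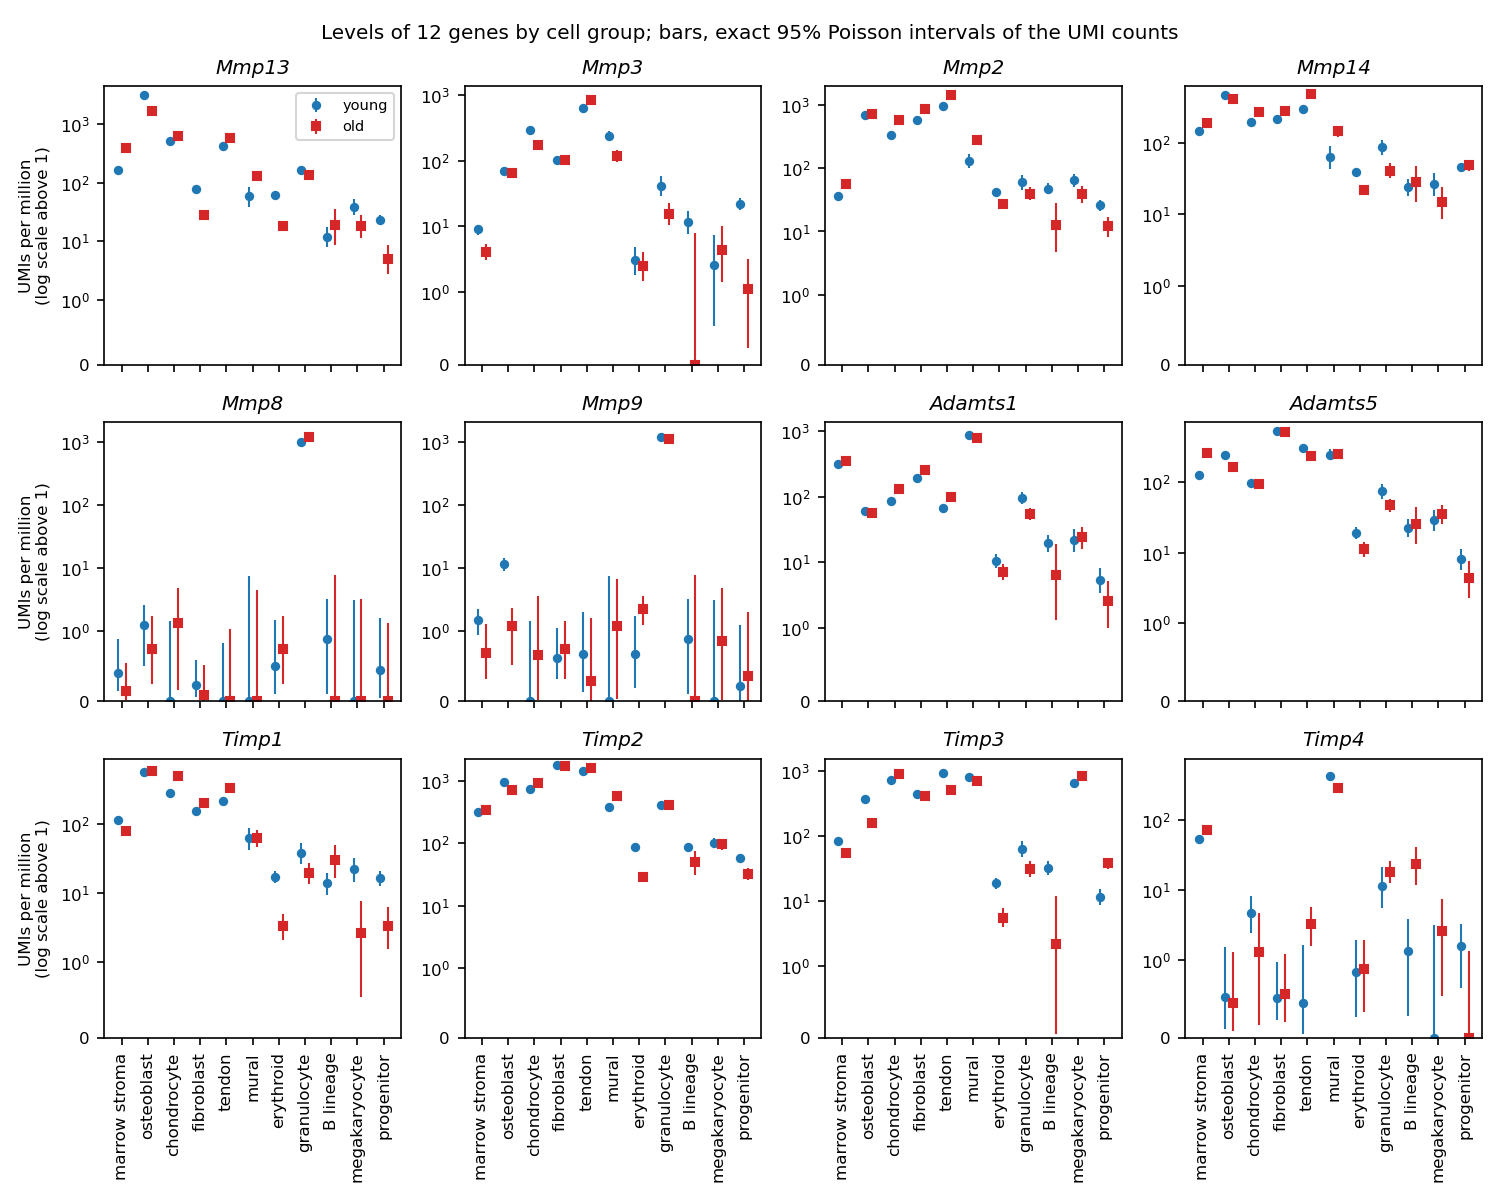
Levels of 12 genes (CPM, log scale above 1, linear below) in 11 cell groups, young mouse as blue circles and old mouse as red squares, with exact 95% Poisson intervals of the counts. Mmp8 and Mmp9 were high in granulocytes alone, Mmp13 was highest in osteoblasts and Timp4 in mural cells in both mice.

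Among the stromelysins, which cut proteoglycans and activate other pro-MMPs, Mmp3 (ENSMUSG00000043613) was highest in tendon cells, at 633.4 CPM in the young and 824.9 CPM in the old mouse. Chondrocytes had 288.7 and 174.2 CPM, fibroblasts 101.6 and 101.4 CPM, and marrow stroma 8.95 and 4.05 CPM. Tendon cells lay above every other group in both mice, and Mmp3 was higher there than in the mean of the other 5 mesenchymal groups by 3.42 ± 0.20 (log2, SE, edgeR adjusted p = 3.45e-06). In mural cells its level of 239.0 CPM in the young mouse rested on 1 cell, which held 105 of 118 UMIs. Mmp11 (stromelysin 3) was higher in marrow stroma than in the other groups by 1.29 ± 0.20 (log2, SE, edgeR adjusted p = 0.000313), with 23.5 and 38.5 CPM, and Mmp10 had 3 UMIs in the young library and 0 in the old.

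Much Mmp3 RNA lay in cells placed in no group, which held 51.6% of its young and 47.3% of its old UMIs. Cells with both a Dio2 and a Megf6 UMI, a gate chosen after these values had been seen, numbered 247 and 142 over all kept cells. In them Mmp3 reached 1436 CPM in the young and 1299 CPM in the old mouse, and Mmp13 reached 1652 and 1603 CPM. In cells with at least 5 Mmp13 UMIs, at least 5 Mmp3 UMIs were found in 11.5% in the young and 12.7% in the old library, against 4.08% and 5.19% of the remaining cells, whose median depth was lower (6246 against 7609 UMIs in the young and 9482 against 10864 in the old).

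The gelatinases, which digest denatured collagen, were expressed in different lineages. Mmp2 (ENSMUSG00000031740) was highest in tendon cells, at 960.8 CPM in the young and 1458 CPM in the old mouse. Osteoblasts had 706.8 and 715.0 CPM, fibroblasts 570.6 and 862.2 CPM, and marrow stroma 35.9 and 55.8 CPM. The order of osteoblasts and fibroblasts below tendon changed between the mice, and marrow stroma was the lowest mesenchymal group in both, by 3.85 ± 0.18 below the mean of the other 5 (log2, SE, edgeR adjusted p = 7.93e-08). A UMI of Mmp2 was found in 91.4% of young and 98.0% of old tendon cells but in 9.24% and 23.7% of marrow stroma cells, against 14.1% and 11.7% of erythroid cells. Mmp9 (ENSMUSG00000017737), the gelatinase of neutrophils and osteoclasts, had 1183 and 1120 CPM in granulocytes. No cell met the rule for osteoclasts in either library. In osteoblasts Mmp9 had 65 UMIs in the young mouse, 33 of them in 1 cell, and 8 in the old.

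The membrane-type MMPs sit at the cell surface, and Mmp14 activates pro-MMP2 with the help of Timp2. Mmp14 (ENSMUSG00000000957) was found in every mesenchymal group. Osteoblasts had 463.4 and 405.9 CPM, tendon cells 295.8 and 481.2 CPM, and mural cells the least, 62.8 and 144.3 CPM. It was higher in osteoblasts by 1.20 ± 0.15 (log2, SE, edgeR adjusted p = 0.000186) and in tendon cells by 0.86 ± 0.15 (adjusted p = 0.0035). Osteoblasts were highest in the young mouse and tendon cells in the old. Mmp16, a second transmembrane enzyme, was mostly an osteoblast gene at 60.1 and 110.0 CPM, with 13.9 and 10.4 CPM in fibroblasts and 1.78 and 0.764 CPM in marrow stroma. Its difference in osteoblasts was 3.76 ± 0.25 (log2, SE, edgeR adjusted p = 2.48e-06), with the largest level more than 4-fold above the next group in both mice. Mmp17 was highest in mural cells at 8.10 and 7.28 CPM, from 5.71% of its 70 young and 10.3% of its 58 old UMIs. Mmp25 (leukolysin) was a granulocyte gene at 78.7 and 93.6 CPM. Mmp15 gave 39 young and 65 old UMIs, and Mmp24 gave 14 and 3.

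The other MMPs were low. Mmp23 was highest in marrow stroma at 127.0 CPM in the young and 108.7 CPM in the old mouse, with osteoblasts at 67.3 and 108.3 CPM, so that in the old mouse these groups could not be told apart. Mmp19 was highest in fibroblasts at 32.7 and 42.8 CPM, higher than in the other groups by 1.84 ± 0.25 (log2, SE, edgeR adjusted p = 0.000236). Mmp28 gave 105 and 85 UMIs and Mmp27 gave 55 and 40. Mmp12, the macrophage elastase, gave 54 UMIs in the young library, 23 of them in 1 cell, and 0 in the old.

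The ADAMTS proteases that cut aggrecan and versican divided between vessel wall, fibroblasts, stroma and osteoblasts. Adamts1 (ENSMUSG00000022893) was highest in mural cells, at 862.7 CPM in the young and 780.9 CPM in the old mouse. Marrow stroma had 313.7 and 351.8 CPM and osteoblasts 60.8 and 56.9 CPM. Mural cells stood at least 2.22-fold above the next group in each mouse, and the edgeR difference was 2.59 ± 0.12 (log2, SE, adjusted p = 1.32e-07). Adamts4, a close relative, had the same highest group at 74.9 and 80.0 CPM (2.25 ± 0.21, log2, SE, edgeR adjusted p = 2.27e-05).

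Adamts5 (ENSMUSG00000022894), the main aggrecanase of mouse cartilage, was highest in fibroblasts at 524.3 and 521.6 CPM and lowest of the mesenchymal groups in chondrocytes at 98.7 and 94.7 CPM. It was higher in fibroblasts by 1.47 ± 0.19 and lower in chondrocytes by -1.30 ± 0.25 (log2, SE, edgeR adjusted p = 0.00018 and 0.00349). When cells were grouped by clusters in place of marker scores per cell, the chondrocyte difference was 0.25 and did not pass the test (edgeR adjusted p = 0.488). Fibroblasts with a UMI of Pi16, a gate chosen after the values were seen, had 757.7 and 705.9 CPM of Adamts5, against 383.6 and 342.9 CPM in the rest.

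Adamts15 was shared by fibroblasts (59.9 and 32.9 CPM) and mural cells (56.7 and 38.8 CPM), which changed places between the mice, and both were higher than the other groups (2.41 ± 0.21 and 2.37 ± 0.37, log2, SE, edgeR adjusted p = 9.93e-06 and 0.000991). Adamts9 was highest in osteoblasts in the young mouse (63.1 CPM, against 52.7 in marrow stroma) and in marrow stroma in the old (109.2 CPM, against 74.3 in osteoblasts). Both osteoblasts and marrow stroma were higher than the other groups (1.67 ± 0.29 and 1.60 ± 0.28, log2, SE, edgeR adjusted p = 0.00164 and 0.000812). Fibroblasts had the lowest Adamts9 level of the mesenchymal groups, 7.34 and 2.98 CPM. Adamts8 gave 128 UMIs in the young library, 50 of them in 1 cell, and 36 in the old, and was highest in mural cells at 26.3 and 4.85 CPM. Mural cells held only 10.2% of the young and 11.1% of the old UMIs. Adamts20 gave 10 and 6 UMIs.

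The procollagen N-proteinases remove the amino-terminal propeptide of fibrillar collagens. Adamts2 (ENSMUSG00000036545) was highest in marrow stroma at 386.1 and 332.7 CPM, followed by osteoblasts at 296.4 and 264.4 CPM, although Col1a1, a substrate, was far lower in stroma than in osteoblasts. It was higher in both groups than in the mean of the others, by 0.76 ± 0.11 and 0.64 ± 0.12 (log2, SE, edgeR adjusted p = 0.000286 and 0.00201). Adamts14 was higher in marrow stroma by 1.92 ± 0.36 (log2, SE, adjusted p = 0.00123), at 18.7 and 15.9 CPM, and was also found in young mural cells at 24.3 CPM. Adamts3 was highest in blood progenitors at 13.6 and 11.3 CPM, and no mesenchymal group passed the test for it.

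Of the other ADAMTS genes, Adamts10, which acts on fibrillin microfibrils, was highest in marrow stroma at 70.7 and 77.8 CPM (1.13 ± 0.12, log2, SE, edgeR adjusted p = 1.82e-05). Adamts12 was highest in fibroblasts at 38.4 and 41.6 CPM, with osteoblasts close by at 37.0 and 30.0 CPM. Adamts6 was found in tendon cells (22.9 and 19.1 CPM) and chondrocytes (20.5 and 39.1 CPM) and was higher in both (1.88 ± 0.22 and 2.53 ± 0.24, log2, SE, edgeR adjusted p = 0.000308 and 3.51e-05). Some low genes were almost limited to 1 or 2 groups. Adamts18 had 18.8 and 24.4 CPM in osteoblasts and 14.2 and 53.0 CPM in chondrocytes, and at most 4.12 CPM in the other mesenchymal groups. Adamts16 had 8.02 and 10.6 CPM in fibroblasts and at most 0.68 CPM in the other mesenchymal groups. Adamts17 had 4.43 and 3.75 CPM in osteoblasts. All 3 were called higher in the groups named, but no fitted difference or p value is given. Mural cells had 0 UMIs of each in both mice, and the fit then depends on the prior count. Adamts16 and Adamts17 could also pass the filter on low counts through the named group alone, and could then only be called higher there. Adamts7 was highest in B-lineage cells at 4.90 and 4.27 CPM but passed in no mesenchymal group. B-lineage cells held 10.4% of its 106 young and 1.75% of its 114 old UMIs, so this place rests on few UMIs. Adamts13, the von Willebrand factor protease, gave 34 and 24 UMIs and Adamts19 gave 16 and 36.

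Each of the 4 TIMPs had its own distribution. Timp2 (ENSMUSG00000017466), which blocks most MMPs, was the most abundant of the 45 genes. Fibroblasts had 1774 and 1724 CPM, tendon cells 1449 and 1560 CPM, and marrow stroma 320.4 and 333.8 CPM. It was higher in fibroblasts and in tendon cells (1.36 ± 0.12 and 1.09 ± 0.12, log2, SE, edgeR adjusted p = 1.21e-05 and 0.000242) and lower in marrow stroma (-1.79 ± 0.15, adjusted p = 5.15e-06). Timp1 (ENSMUSG00000001131) was highest in osteoblasts at 576.8 and 590.8 CPM and higher there than in the others by 1.94 ± 0.18 (log2, SE, edgeR adjusted p = 2.93e-05), as it was in chondrocytes (1.30 ± 0.20, adjusted p = 0.000841), which had 287.9 and 505.5 CPM. In the old library 1 cell held 653 of 16490 Timp1 UMIs.

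Timp3 (ENSMUSG00000020044), which binds to the matrix and also blocks ADAMTS proteases, was found in several groups with no constant order. Its levels were 915.4 and 496.8 CPM in tendon cells, 721.8 and 902.3 CPM in chondrocytes and 795.9 and 687.5 CPM in mural cells. It was also high in 1 blood group, megakaryocytes, at 637.3 and 840.3 CPM, where 91.9% and 84.5% of cells held a UMI against 10.2% and 3.80% of erythroid cells of similar depth (medians of 10649 and 11001 against 11358 and 13579 UMIs). Marrow stroma had the least of the mesenchymal groups, 83.6 and 54.0 CPM. Timp4 (ENSMUSG00000030317) was nearly confined to mural cells (427.3 and 289.8 CPM) and marrow stroma (54.9 and 73.8 CPM) among the mesenchymal groups, the others having at most 4.74 CPM. The edgeR differences were 7.06 ± 0.26 in mural cells and 3.95 ± 0.25 in marrow stroma (log2, SE, adjusted p = 1.51e-08 and 5.14e-07). In GRCm38.p6, Timp1, Timp3 and Timp4 lie within the synapsin genes Syn1, Syn3 and Syn2. Counts can be shared between overlapping genes where reads are not separated by strand, and how they were separated is not given in the sources used here.

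Summed over a family, MMPs reached 4543 CPM in the young and 3118 CPM in the old osteoblasts, the highest of the 11 groups in the young mouse. Tendon cells had 2400 and 3445 CPM and granulocytes 2667 and 2672 CPM. TIMPs reached 2582 and 2392 CPM in tendon cells, 2358 and 2334 CPM in fibroblasts and 1749 and 2316 CPM in chondrocytes. ADAMTS sums were highest in mural cells at 1484 and 1426 CPM, with fibroblasts at 1074 and 1142 and marrow stroma at 1017 and 1210 CPM. The ratio of TIMP to MMP transcripts was lowest among the mesenchymal groups in osteoblasts, at 0.413 (young) and 0.470 (old). It was 3.00 and 2.11 in mural cells and 2.18 and 1.66 in fibroblasts, the highest and the next highest of the 6 mesenchymal groups in both mice. The mural MMP sums include a single Mmp3-rich cell in the young mouse and a single Mmp13-rich cell in the old, and sums without them were not taken. Among blood groups it was 5.45 and 10.6 in megakaryocytes, above mural cells, and 0.192 and 0.177 in granulocytes.

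Counts per contrast put these genes beside all genes. Of the 45, 30 passed the filter on low counts in the fit of the 6 mesenchymal groups, which kept 13679 genes, and a gene can pass through 1 high group. In marrow stroma 9 of the 30 were higher and 10 lower at an edgeR adjusted p below 0.05 (26.1% and 23.3% of all genes), with a median log2 difference of -0.15 against 0.02 over all genes. In osteoblasts 12 were higher and 3 lower (14.9% and 13.7% of all genes; medians 0.46 and 0.00). In chondrocytes 7 were higher and 8 lower (13.7% and 8.87%; medians -0.34 and 0.00). In fibroblasts 8 were higher and 5 lower (18.6% and 12.6%; medians 0.11 and 0.01). In tendon cells 6 were higher and 3 lower (10.6% and 4.36%; medians 0.41 and 0.02), and in mural cells 7 were higher and 6 lower (11.3% and 6.67%; medians -0.48 and -0.05). The shares of the 30 lay near the background in marrow stroma, fibroblasts and for lower genes in osteoblasts, and above it in the other cases. No comparison with genes of like abundance was made. The 84 calls all had the same sign in each mouse taken alone, but they were made from these same mice, so this is no separate support. Of the 30 genes, 28 were higher in at least 1 group, Adamts3 and Adamts7 were called in none, and 11 were called in 4 or more groups, Adamts1 and Mmp2 in all 6.

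**Figure D3:**
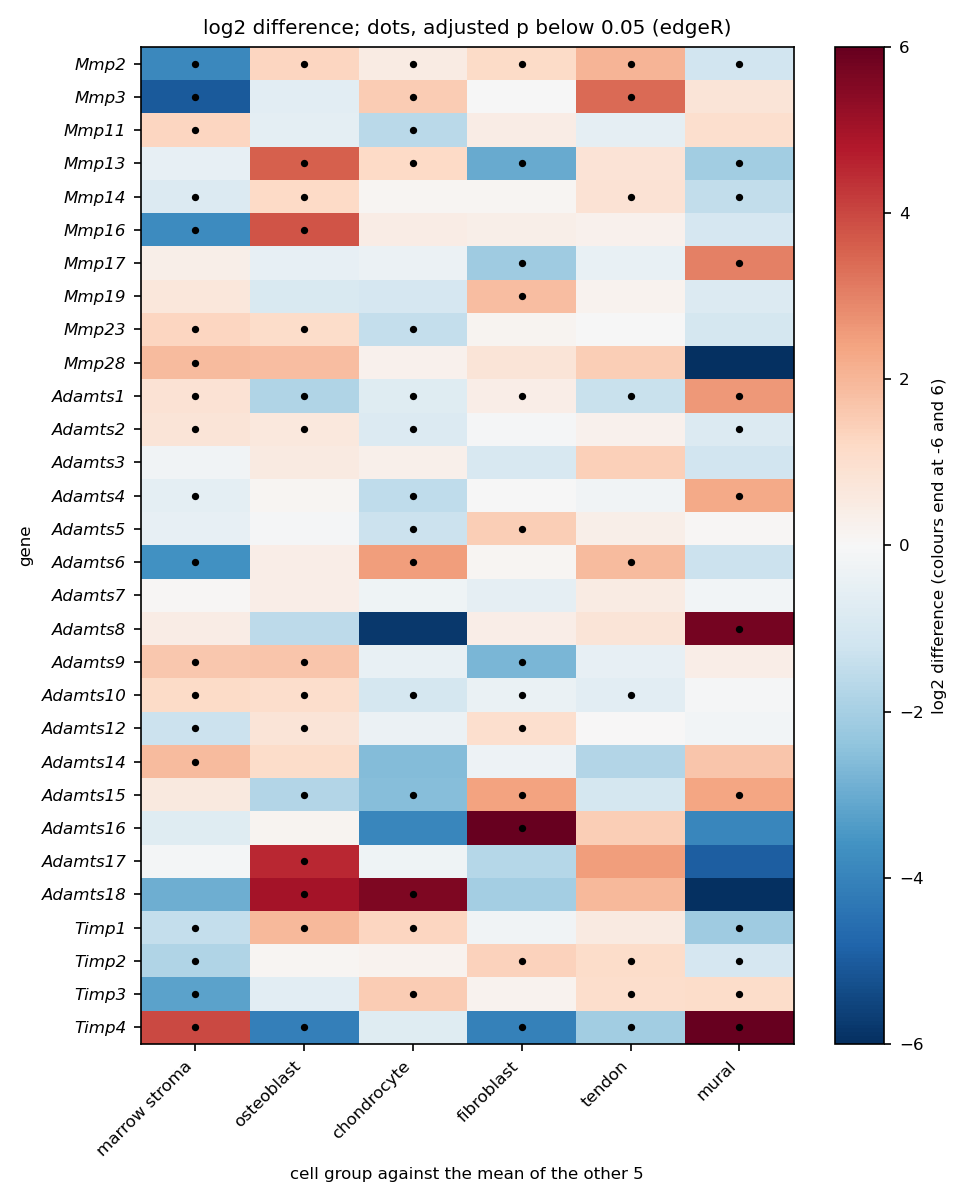
Log2 difference of each of 30 genes (rows) in a mesenchymal group against the mean of the other 5 (columns), from edgeR with the mouse as covariate, red higher and blue lower, with dots where the adjusted p was below 0.05. Values of Adamts8, Adamts16, Adamts17, Adamts18 and Mmp28 rest on groups at 0 UMIs and depend on the prior count. Osteoblasts show 12 dots among higher genes and 3 among lower ones, and marrow stroma 9 and 10.

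The proteases' activators, inhibitors and clearance receptors (16 genes) and their matrix substrates (14 genes) were read in the same fit. In marrow stroma 2 of 13 tested activators and inhibitors were higher and 7 lower, and 5 of 14 substrates were higher and 8 lower, against 26.1% and 23.3% of all genes. A2m, the broad plasma protease inhibitor alpha-2-macroglobulin, was higher in stroma by 5.84 (log2, edgeR adjusted p = 2.00e-08), while Plat, tissue plasminogen activator, was lower by -5.40 and Fn1, fibronectin, by -4.98. Col1a1, the main collagen of bone, was lower there by -4.40 and higher in osteoblasts by 4.05 (edgeR adjusted p = 7.59e-08 and 2.05e-08). In osteoblasts 4 of 13 activators and inhibitors were higher and 2 lower, and 4 of 14 substrates were higher and 6 lower (14.9% and 13.7% of all genes). The substrate Fbn1, fibrillin 1, was lower by -2.73. The activators included Pcsk6, a proprotein convertase, higher by 2.45, and Plau, urokinase, lower by -2.89.

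In fibroblasts (18.6% of all genes higher and 12.6% lower) 5 of 13 activators and inhibitors were higher and 2 lower, with Plau higher by 3.74 and Pcsk6 by 2.99 (log2, edgeR adjusted p = 1.51e-07 and 3.45e-05), and 8 of 14 substrates were higher and 2 lower, among them Vcan, versican, a substrate of several ADAMTS proteases, higher by 3.15. In chondrocytes (13.7% and 8.87%) 7 of 13 were higher and 1 lower, with Plaur, the urokinase receptor, higher by 2.71 and Pcsk5 by 1.91, and 8 of 14 substrates were higher and 5 lower, with Comp, a cartilage oligomeric matrix protein, higher by 3.26. In tendon cells (10.6% and 4.36%) 5 of 13 were higher and 1 lower, with Spock2, a matrix proteoglycan, higher by 2.42 and Spock1 also called (edgeR adjusted p = 0.0208), at 1.60 in the young mouse alone and 3.55 in the old alone, and 7 of 14 substrates were higher and 0 lower. In mural cells (11.3% and 6.67%) 1 of 13 was higher and 3 lower, with Plaur lower by -4.06, and the basement membrane collagens Col4a1 and Col4a2 were higher by 1.84 and 1.86 among 2 substrates higher and 9 lower.

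Granulocytes were compared with the mean of the other 4 blood groups. Of 19 of the 45 genes that passed the filter, 17 were higher and 0 lower (31.6% and 32.5% of 11596 genes), with a median log2 difference of 2.89 against -0.12 over all genes. A gene can pass this filter through granulocytes alone, as Mmp8, Mmp9 and Mmp25 did, and such a gene could only be called higher. The count of higher genes is thus no measure of the 45 genes as a set. At an unadjusted p below 0.05 the count lower was also 0 by edgeR, as it was by DESeq2 at an adjusted p below 0.05. Mmp8, Mmp9 and Mmp25 stood apart from the other 14. Against the remaining blood groups summed, Mmp9 was 2321-fold higher in the young mouse (interval 1122 to 5788) and 731-fold in the old (456 to 1258), and Mmp8 was 1937-fold (936 to 4833) and 2638-fold higher (1129 to 8134). Mmp25 had 0 UMIs in the other blood groups and was at least 360-fold and 346-fold higher, taking 3 UMIs over those groups per mouse as the floor. Their edgeR p values are left out, since these genes entered the fit through granulocytes alone. A UMI of Mmp8 was found in 69.3% of young and 49.4% of old granulocytes, against 0.276% and 1.36% of erythroid cells, which were deeper (medians of 3353 and 3269 against 11358 and 13579 UMIs).

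Granulocytes with an Ltf UMI, the gene of the granule protein lactoferrin, were gated after the values had been seen. They had 1244 and 1695 CPM of Mmp8, against 802.8 and 929.7 CPM in the rest. For Mmp9 the values were 1280 and 1325 CPM against 1113 and 1015 CPM. Of granulocytes with at least 5 Mmp8 UMIs, 75.0% (young) and 87.5% (old) also had at least 5 Mmp9 UMIs, against 32.4% and 15.9% of the shallower remaining granulocytes.

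Marrow stroma RNA moved with the other 14 calls. Cxcl12, a stromal chemokine, reached 8417 CPM in young and 3758 CPM in old granulocytes, and 825.2 and 552.7 CPM in erythroid cells. The 8 marrow stroma markers, all detected, summed to 14030 and 7690 CPM in granulocytes, against 83.1 to 1778 CPM in the other blood groups. Of the 14 matrix substrates, 12 were higher in granulocytes and 0 lower, against the 31.6% and 32.5% of all genes. The part of this RNA in the granulocyte levels of Mmp13, Adamts1, Adamts2, Timp2 and the rest was not tested.

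CD24 protein, read with the antibody, is the marker by which the study followed an osteolineage population. A cell was taken as CD24+ where its antibody count lay above a threshold set per library (312 in the young, 396 in the old). Cells of the 6 mesenchymal groups held 444 CD24+ and 5730 CD24- cells in the young mouse and 163 and 2998 in the old. In a fit with the mouse as covariate, which left 1 residual degree of freedom per gene, 33 of the 45 genes were tested. In CD24+ cells 5 were higher and 5 lower (4.94% and 4.55% of 14631 genes; medians 0.13 and 0.00). Of the 5 higher, Mmp13 differed most, with 497.9 CPM in CD24- and 977.2 CPM in CD24+ cells of the young mouse against 504.6 and 1123 CPM in those of the old (1.16 ± 0.07, log2, SE, edgeR adjusted p = 2.62e-05). Mmp14, Timp3, Mmp2 and Timp1 were higher by 0.51 to 0.83 and Adamts15, Mmp19, Timp4, Adamts1 and Adamts5 were lower, by -0.99 to -0.48 on the log2 scale.

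The mix of cell groups moved with CD24. Osteoblasts made up 32.2% of CD24+ and 10.2% of CD24- cells in the young mouse and 37.4% and 11.9% in the old, and marrow stroma 22.1% against 41.6% and 20.9% against 49.2%. Of the 12 genes called higher in osteoblasts, Mmp13, Mmp14, Mmp2 and Timp1 were among the 5 higher in CD24+ cells, and the rest of the 12 were not. The part of the mix in these differences was not tested gene by gene. With mouse and cell group held together as a block, 0 of 18 tested passed (0.0242% of all genes, edgeR), with 5 at an unadjusted p below 0.05 and no run of DESeq2 with that block, and Timp1 changed sign to -0.13. With no replicate block 1 of 33 passed.

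Within osteoblasts, 143 young and 61 old cells were CD24+, and 3 of 25 tested genes were higher and 4 lower (1.54% and 1.1% of 10965 genes; medians -0.16 and -0.00). This fit, too, had 1 residual degree of freedom per gene, and both CD24 fits share their spread over genes. Mmp14 was higher in CD24+ osteoblasts, at 645.1 against 401.3 CPM (young) and 581.4 against 373.6 CPM (old) (0.64 ± 0.11, log2, SE, edgeR adjusted p = 3.52e-05). Timp2 and Mmp2, its partners in the activation of MMP2 at the cell surface, were higher by 0.59 ± 0.10 and 0.45 ± 0.11 (log2, SE, adjusted p = 6.55e-05 and 0.00534). Adamts18, Mmp16, Adamts9 and Timp1 were lower, by -1.47, -0.97, -0.70 and -0.49 (edgeR adjusted p from 1.93e-05 to 0.00648). Mmp13 was 3412 CPM in CD24- and 2347 CPM in CD24+ osteoblasts of the young mouse and 1691 and 1724 CPM in the old, a difference that did not pass (-0.28 ± 0.10, edgeR adjusted p = 0.183). The 10 osteoblast markers summed to 24230 CPM in CD24+ and 26460 CPM in CD24- osteoblasts in the young mouse and to 34520 and 41780 CPM in the old. Tendon markers were higher in CD24+ osteoblasts, at 1595 against 975.4 CPM (young) and 900.2 against 566.9 CPM (old), as were mural markers (407.1 against 211.3 and 322.6 against 223.6 CPM), marrow stroma markers (1684 against 1227 and 1089 against 762.5 CPM) and fibroblast markers (560.2 against 422.7 and 296.5 against 279.3 CPM). The part of these other cell types in the osteoblast differences was not tested. Without the replicate block 0 of 25 passed in edgeR (7 at an unadjusted p below 0.05), thinned to 2000 UMIs per cell 2 did, and DESeq2, which gave an adjusted p for 8 of the genes, called 2.

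**Figure D4:**
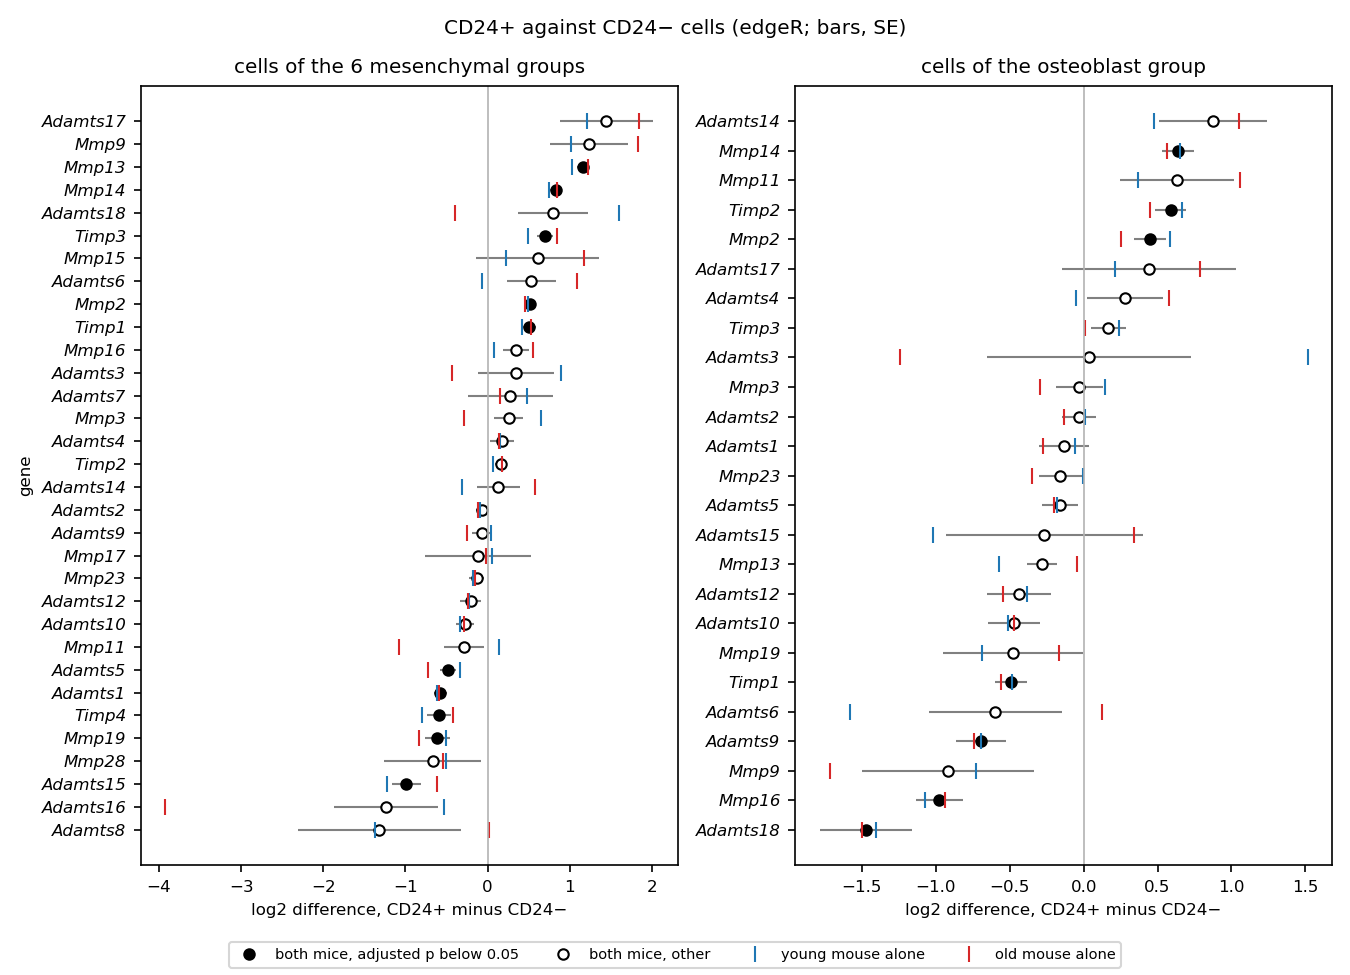
Log2 difference between CD24+ and CD24- cells for each gene with at least 100 UMIs, over cells of the 6 mesenchymal groups (left) and over osteoblasts (right), from edgeR with SE bars. Filled circles passed at an adjusted p below 0.05, open circles did not, and ticks give the young (blue) and the old mouse (red) alone. Mmp13 was at 1.16 on the left and -0.28 on the right.

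Between the libraries, the old to young ratio of each gene was taken in all kept cells and in each group where both libraries together held at least 20 UMIs, and 2-fold was used as the limit, with no test because each age had 1 mouse. Over all kept cells 6 of 38 genes lay past 2-fold (6.9% of 17345 genes). Mmp8 and Mmp25, at ratios of 2.84 and 2.74, moved with the share of granulocytes, which was 1.65% of kept young and 6.31% of kept old cells. Within granulocytes Mmp8 was 1.20 (1.11 to 1.31) and Mmp9 0.947 (0.877 to 1.02). Mmp15, Adamts19, Mmp12 and Adamts8 were the other 4, all with fewer than 200 UMIs in all, and Adamts8 moved from 0.342 to 0.530 without its richest cells.

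In marrow stroma 6 of 28 genes lay past 2-fold (4.71% of 13535 genes). Mmp13 was 164.2 CPM in the young and 387.4 CPM in the old mouse, a ratio of 2.36 (2.25 to 2.48). Adamts5 was 126.8 and 262.7 CPM (2.07, 1.96 to 2.19), and Adamts9 was 52.7 and 109.2 CPM (2.07, 1.90 to 2.26). The libraries differed in the clusters that carried stroma markers: one held 1487 young and 388 old cells and another 156 young and 709 old, and their part in these ratios was not tested. These 3 genes kept ratios above 2 with doublets removed, with groups taken from clusters, after thinning to 2000 UMIs per cell and without the richest cell. An Mmp13 UMI was found in 28.9% of young and 53.1% of old stroma cells (17.6% and 33.0% after thinning), while erythroid cells went from 13.0% to 10.6%. Mmp3 was lower at a ratio of 0.453, but 59 of its 131 young UMIs lay in 1 cell, and with doublets removed the ratio was 1.08. Mmp9 and Mmp16, at 0.458 and 0.430, had at most 26 UMIs per library and were 0.757 and 0.722 with groups by clusters, short of 2-fold.

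The summed osteoblast markers were not higher in old stroma. The 10 osteoblast markers summed to 7897 CPM in young and 5396 CPM in old stroma. Most of that sum was 1 gene, Ibsp, bone sialoprotein, which went from 7563 to 5043 CPM. Ibsp was 8981 and 11400 CPM in osteoblasts, so it set these groups apart poorly. Bglap, osteocalcin, went from 25.8 to 12.5 CPM in stroma, while Phex, an osteocyte peptidase gene, went from 199.1 to 262.7 CPM. Stroma cells with at least 3 Mmp13 UMIs made up 9.72% of young and 30.5% of old stroma. These cells had Lepr at 1654 and 1755 CPM, against 1608 and 1665 CPM in stroma without an Mmp13 UMI, and Cxcl12 at 27180 and 22810 CPM, against 28530 and 25870 CPM. Alpl, alkaline phosphatase, was higher in them, at 88.0 and 60.5 CPM against 32.4 and 24.8 CPM, as was Ibsp (8254 and 5596 against 7318 and 4360 CPM). Bglap was 46.2 against 17.0 CPM in the young mouse but 13.3 against 12.9 CPM in the old, Col1a1 was 544.5 against 292.3 CPM and then 485.3 against 521.6 CPM, and Spp1, osteopontin, was lower in both (4148 and 2194 against 4273 and 3668 CPM). The part of osteoblast transcripts in the difference between the libraries was not tested.

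In osteoblasts 4 of 27 genes lay past 2-fold (7.11% of 12144 genes), where the median gene had a log2 ratio of -0.16. Timp3 was 368.9 CPM in the young and 156.3 CPM in the old mouse, a ratio of 0.424 (0.393 to 0.457), which became 0.475 with a TMM factor between the libraries, 0.552 with groups by clusters and 0.593 after thinning. Tendon markers (8 genes, 2 at 0 in each mouse) summed to 1133 CPM in young and 618.6 CPM in old osteoblasts, marrow stroma markers to 1343 and 813.1 CPM and osteoblast markers to 25890 and 40650 CPM, and their part in the osteoblast ratios was not tested. Adamts14 was higher in the old mouse (2.66, from 28 and 88 UMIs), Adamts3 was 2.26 but 1.16 without its richest cell, and Mmp9 was 0.104, from 65 and 8 UMIs. Mmp13 itself was 0.540 (0.527 to 0.553), Mmp16 1.83 (1.61 to 2.09) and Timp1 1.02 (0.978 to 1.07).

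The lower Mmp13 level of the old osteoblasts was not uniform. In osteoblasts with a UMI of Dmp1, a gene of late osteoblasts and osteocytes, it was 5638 CPM in 144 young and 1468 CPM in 136 old cells, 3.84-fold higher in the young (3.70 to 3.99). In those without Dmp1 it was 2242 and 1862 CPM. By Tnn, a tenascin gene, Mmp13 was 2637 CPM in the young and 3054 CPM in the old mouse where a UMI was present, and 3548 and 1126 CPM where none was. These gates were chosen after the values had been seen, and old osteoblasts were deeper (medians of 16764 against 8054.5 UMIs with Dmp1). In the same Dmp1 cells, Timp3 was 301.9 and 128.0 CPM, Adamts5 234.3 and 106.0 CPM and Timp1 871.4 and 640.3 CPM, all lower in the old mouse, while Mmp16 was 99.7 and 145.1 CPM and Mmp2 381.5 and 466.5 CPM.

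Chondrocytes had 4 of 19 genes past 2-fold (9.83% of 10135 genes). Adamts18 was 14.2 CPM in the young and 53.0 CPM in the old mouse (3.73, 2.49 to 5.69), and Mmp23, Adamts9 and Mmp19 had at most 65 UMIs per library. With groups by clusters Mmp23 went from 0.453 to 0.508, short of 2-fold, and Mmp19 from 2.29 to 4.66. Fibroblasts had 3 of 26 (4.23% of 13191 genes). Their Mmp13 ratio of 0.362 (77.6 and 28.1 CPM) was 2.33 with doublets removed, when 191 and 275 UMIs remained of 1364 and 302. Adamts9 was 0.406 in fibroblasts, but 0.873 after thinning, and Adamts3 was 3.53, from 13 and 28 UMIs. Tendon cells had 2 of 22 (4.11% of 11476 genes), Mmp19 at 3.56 (2.34 to 5.56; 7.03 and 25.0 CPM; 1.97 with groups by clusters) and Adamts3 at 2.09 (1.35 with groups by clusters and 1.92 without the richest cells).

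Mural cells had 4 of 18 genes past 2-fold (7.93% of 7292 genes). Mmp2 was 2.13 (1.61 to 2.86) and Mmp14 2.30 (1.54 to 3.53) times its young level, but with groups by clusters these were 1.39 and 1.75, short of 2-fold, and after thinning Mmp2 was 3.23. Mmp13 was 2.27 with, and 0.435 without, the richest cell of each library, which held 102 of 110 old UMIs. Mmp3 was 0.492 with, and 2.76 without, the richest cells. Granulocytes had 5 of 17 past 2-fold, all lower in the old mouse (14.5% of 7863 genes): Mmp3, Timp3, Adamts2, Mmp14 and Adamts10. The stroma marker sum of granulocytes was also lower in the old mouse, as given above, and its part was not tested.

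**Figure D5:**
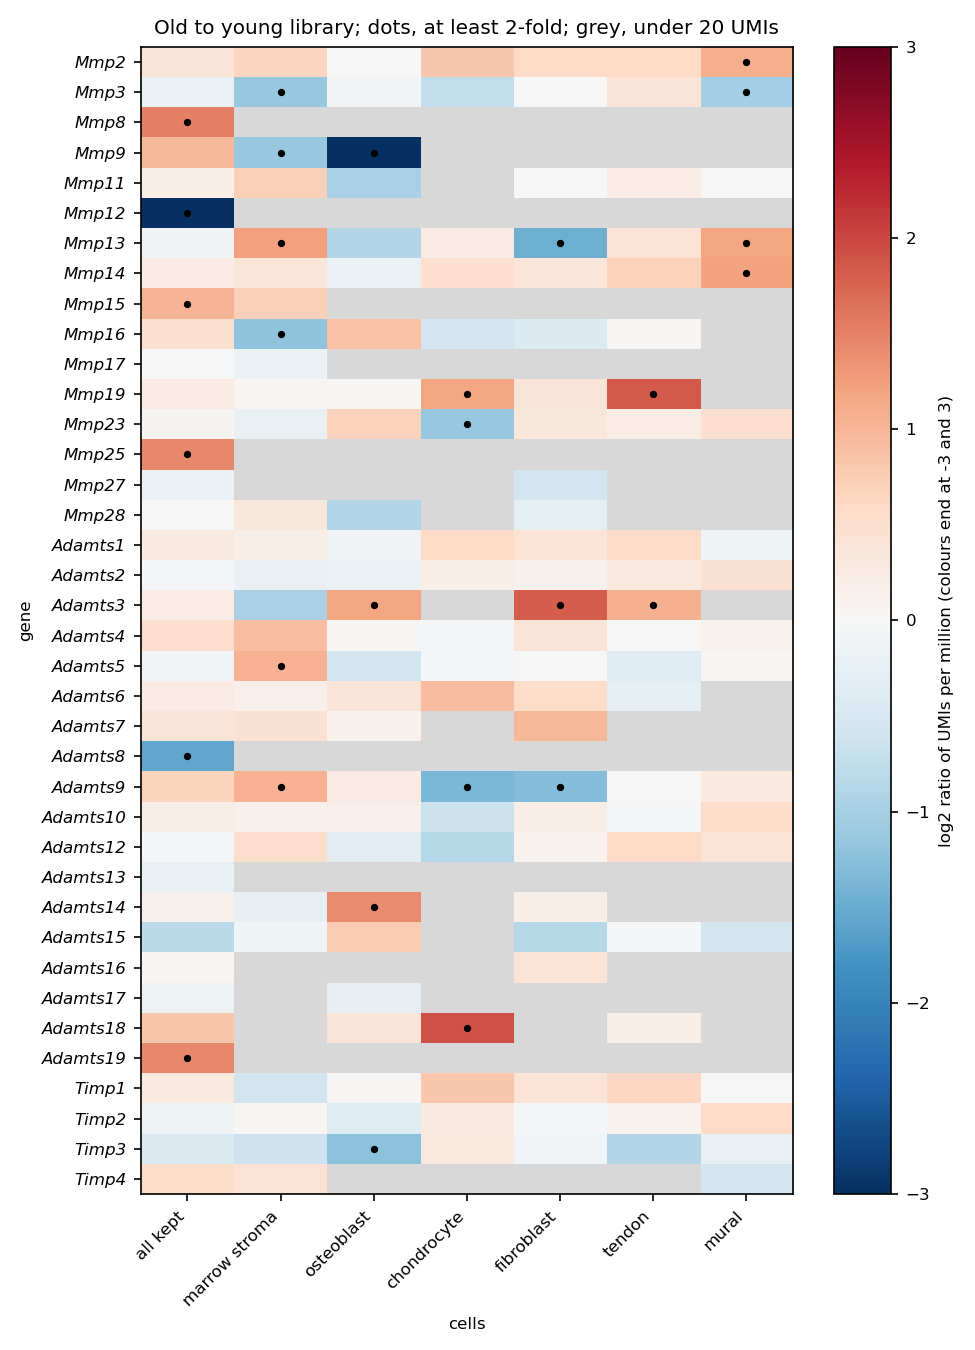
Log2 ratio of CPM in the old to the young library (columns, all kept cells and 6 mesenchymal groups) for each gene with at least 20 UMIs over both libraries there (grey, fewer), red higher in the old and blue lower, with dots past 2-fold. Marrow stroma shows Mmp13, Adamts5 and Adamts9 past 2-fold in red, and osteoblasts show Timp3 and Mmp9 in blue.

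By family, MMP transcripts were higher in the old library in marrow stroma (ratio 1.52), tendon cells (1.44), mural cells (1.37), fibroblasts (1.30) and chondrocytes (1.22) and lower in osteoblasts (0.686). TIMP sums ranged from 0.780 in osteoblasts to 1.32 in chondrocytes. The TIMP to MMP ratio went from 1.07 to 0.665 in marrow stroma, from 1.08 to 0.694 in tendon cells, from 2.18 to 1.66 in fibroblasts and from 3.00 to 2.11 in mural cells, while in osteoblasts and chondrocytes it went from 0.413 to 0.470 and from 1.26 to 1.36. Both mural ratios depend on the single cells rich in Mmp3 (young) and Mmp13 (old). In cells with at least 10 UMIs of Prg4 (lubricin, made by joint lining cells), gated after the values had been seen, Mmp13 was 145.0 CPM in 1399 young cells and 370.9 CPM in 804 old ones.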

How the data were processed

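The authors deposited 1 matrix of raw counts per mouse, whole numbers of UMIs per gene and barcode for RNA and 1 CD24 antibody. Per the file headers it was written by Cell Ranger 6.1.1, whereas the methods name an earlier release, and the submitters' processing notes give mm10. Nothing had been normalized. Depth per kept library was 81076421 and 66702846 UMIs.

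Cells were kept as the study states, and placed in the group whose markers had the highest score (at least 3 markers detected, score at least 0.5 and lead at least 0.25). The score was the mean over a list of the log of CP10K, standardized per marker over all kept cells, so these limits are in standard deviations. Doublets (Scrublet in scanpy 1.11.5, 269 young and 57 old) stayed in and were removed as an alternative. UMIs were summed per mouse and group. Sums were tested with edgeR 4.0.16 (quasi-likelihood, TMM, Benjamini-Hochberg adjustment over all genes tested) in R 4.3.3, with the mouse as a covariate, since the sums of a mouse come from 1 animal. The p-values thus rest on how far differences between cell sums disagreed between 1 young and 1 old mouse, with spread shared over genes. They do not measure the spread between mice of the same age. The fits were tested on simulated data. CD24+ was an antibody count above the Otsu threshold of the log count. Old and young were compared as ratios with exact conditional intervals, and a gene at 0 was set to a floor of 3 counts. Alternatives were DESeq2 1.42.0, its size factors, no filter, no block, clusters, a 10% mitochondrial limit, doublet removal, thinning to 2000 UMIs (770 young and 496 old shallower cells left out) and single mice.

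Values were given for genes with at least 100 UMIs, and of the other listed genes for up to 6 per comparison past the test with a log2 difference of at least 1. The genes, lists and tests were chosen with earlier results of these data known. Promoters are from RefSeq (GRCm38.p6).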

Additional observations from a re-analysis of the deposited data

Results flagged for a closer look

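For 2 genes the old to young ratio pointed in opposite directions in different mesenchymal groups, past 2-fold on both sides. Adamts9 was 2.07 in marrow stroma but 0.387 in chondrocytes (65 and 15 UMIs) and 0.406 in fibroblasts (129 and 32 UMIs). Mmp13 was 2.36 in marrow stroma and 2.27 in mural cells but 0.362 in fibroblasts. With 1 mouse per age these differences were not tested. The fibroblast value of Mmp13 turned with doublets removed and the mural value without the richest cell, the fibroblast value of Adamts9 was 0.873 after thinning, and the stroma values of both genes stayed above 2 under the alternatives tried.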

How the results depend on the processing

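Of the compared results, counts of called genes stayed within 1.5 times in 6 mesenchymal contrasts and in granulocytes, except that without the filter on low counts 15 passed in tendon (9 with it) and that after thinning 8 of 11 tested passed in granulocytes (17 of 19 without). The replicate block, by mouse, mattered for CD24: without it 1 gene passed over mesenchymal cells and 0 in osteoblasts, and it changed no other count by over 1.5 times. With mouse and cell group as a block 0 passed over mesenchymal cells. In osteoblasts 2 passed by DESeq2 and 2 after thinning. Each mouse alone kept the sign of every called gene, and no test was possible there. The calls were made from the same mice, so this is no separate support. Values that turned were Adamts5 in chondrocytes with groups by clusters (0.25), Timp1 by CD24 with the block of mouse and group (-0.13), and old to young log2 ratios of Mmp3 in marrow stroma (0.12), Mmp13 in fibroblasts (1.22) and Mmp3 in mural cells (2.09) with doublets removed, and of Mmp13 (-1.20) and Mmp3 (1.46) in mural cells without the richest cell. The old to young calls in mesenchymal groups fell from 23 to 15 after thinning, when fewer UMIs remained to be compared. For the other changes the cause was not tested.

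Depth limits low genes: 11 of the 45 had under 100 UMIs and are given as counts. In all, 142 of the CD24 values kept direction and call and 40 lost the call, against 930 and 29 for the cell groups, and 137 of the old to young values held while 15 moved.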

Other observations

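In macrophage-like cells, 10 young and 35 old, which were too few for the comparisons, Mmp9 was 522.6 CPM (23 UMIs) and 203.6 CPM (100 UMIs). Chondrocytes with a Col10a1 UMI, a gene of hypertrophic cartilage, numbered 18 and 13, and their Timp3 level was 1052 and 2109 CPM, against 688.7 and 655.3 CPM in the other chondrocytes. Their Mmp13 level was 26.0 and 904.2 CPM. Mural cells without a Myh11 UMI, a smooth muscle myosin, numbered 14 and 22 and had Mmp2 at 460.4 and 733.3 CPM, against 48.0 and 78.2 CPM in those with one.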
